A study of Mus musculus with 10 samples.

Results

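The genes described here are the 8 MHC class I heavy chains H2-K1, H2-D1, H2-T23, H2-T22, H2-Q4, H2-Q6, H2-Q7 and H2-M3, chosen by gene symbol from 24755 genes with values in mouse pancreatic ductal adenocarcinoma (PDAC) tumor cells. Expression was measured by bulk RNA sequencing in 10 libraries that fall into 3 groups. The PD-L1 high group held 3 libraries of cells stimulated with recombinant mouse interferon gamma (IFNγ) and sorted for high surface PD-L1, the ligand of the checkpoint receptor PD-1. The treated all group held 3 libraries of IFNγ-stimulated cells of all PD-L1 levels, and the untreated all group held 4 libraries without IFNγ, again of all levels. Cells were collected after 20 hours, and the strain is given as C57BL/6 for treated all and untreated all. For PD-L1 high it is given as C57BL/7, C57BL/8 and C57BL/9 in libraries 1, 2 and 3, so the sort and the strain as labelled cannot be told apart. Cells with high PD-L1 are not kept out of treated all, and no group was sorted for low PD-L1. The labels name no agent, genotype or cell line beyond these, and no label ties a library to a culture of its own, so the spread between these samples, and every p-value built on it, may be technical.

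An MHC class I molecule is a heavy chain paired with the light chain β2-microglobulin and, in most cases, a short peptide from inside the cell, which it shows to T cells and natural killer (NK) cells. The classical chains H2-K1 and H2-D1 present peptides to CD8 T cells. The nonclassical chains have narrower tasks: H2-T23 encodes Qa-1, the ligand of the inhibitory receptor CD94/NKG2A, H2-T22 is recognised by some γδ T cells, H2-M3 presents peptides that begin with formyl-methionine, and H2-Q6 and H2-Q7 belong to the Qa-2 group. IFNγ is a classic inducer of these genes, through interferon regulatory factors (IRF) and the transactivator NLRC5, which acts with RFX, CREB/ATF and NF-Y factors at their promoters.

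All 8 genes lie on chromosome 17 of GRCm38 (the assembly of mm10) in the MHC. H2-K1 (ENSMUSG00000061232.16) spans 33996017 to 34000347 on the minus strand, at one end, and H2-D1 (ENSMUSG00000073411.11) spans 35262730 to 35267499 on the plus strand. H2-Q4 (35379617 to 35385290), H2-Q6 (35424850 to 35430055) and H2-Q7 (35439155 to 35443773) follow on the plus strand. H2-T23 (36029773 to 36032855) and H2-T22 (36037128 to 36042747) lie on the minus strand, and H2-M3 (37270220 to 37274484) on the plus strand. All 8 are annotated as protein coding in GENCODE.

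All 8 had a promoter window in RefSeq (GRCm38.p6), 300 bases from 250 before to 50 after the annotated start. The 146 bases around the IRF-type motif are printed 5′ to 3′ on the gene's own strand, because the chains that moved most and least with IFNγ can be compared in them letter by letter. Capitals mark TTTCNNTTC, the core that IRF factors read, or its shorter form TTTCNNTT where only that was present; GGGGATTCC, an NF-κB-type site; CCAAT, the core read by NF-Y (ATTGG on the other strand); and TGACG, the core read by CREB/ATF factors (CGTCA on the other strand). Both strands were searched, and marked matches do not overlap except that TTTCNNTTC contains TTTCNNTT.
H2-K1 (chr17:34000328-34000473, minus strand): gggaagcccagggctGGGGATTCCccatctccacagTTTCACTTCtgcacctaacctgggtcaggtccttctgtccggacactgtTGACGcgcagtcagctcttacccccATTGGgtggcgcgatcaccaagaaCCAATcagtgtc
H2-D1 (chr17:35262908-35263053, plus strand): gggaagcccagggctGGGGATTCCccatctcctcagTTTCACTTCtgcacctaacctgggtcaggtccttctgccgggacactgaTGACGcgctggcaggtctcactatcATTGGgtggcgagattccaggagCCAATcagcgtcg
H2-Q4 (chr17:35379428-35379573, plus strand): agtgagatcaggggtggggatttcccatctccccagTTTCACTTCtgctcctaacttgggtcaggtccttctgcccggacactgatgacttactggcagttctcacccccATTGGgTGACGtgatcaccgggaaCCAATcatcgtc
H2-Q6 (chr17:35424662-35424807, plus strand): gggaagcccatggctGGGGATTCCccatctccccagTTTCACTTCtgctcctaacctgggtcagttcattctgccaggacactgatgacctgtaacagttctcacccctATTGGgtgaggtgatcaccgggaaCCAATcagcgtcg
H2-Q7 (chr17:35439006-35439151, plus strand): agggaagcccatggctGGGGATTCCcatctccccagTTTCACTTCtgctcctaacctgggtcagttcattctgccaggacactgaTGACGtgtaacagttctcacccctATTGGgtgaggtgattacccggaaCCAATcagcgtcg
H2-T23 (chr17:36032716-36032861, minus strand): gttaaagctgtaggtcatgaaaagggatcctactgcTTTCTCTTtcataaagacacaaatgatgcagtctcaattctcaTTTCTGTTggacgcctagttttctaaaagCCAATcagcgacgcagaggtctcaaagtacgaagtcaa
H2-T22 (chr17:36042824-36042969, minus strand): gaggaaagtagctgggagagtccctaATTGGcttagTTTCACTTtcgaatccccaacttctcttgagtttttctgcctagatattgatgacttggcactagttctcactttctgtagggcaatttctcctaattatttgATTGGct
H2-M3 (chr17:37270097-37270242, plus strand): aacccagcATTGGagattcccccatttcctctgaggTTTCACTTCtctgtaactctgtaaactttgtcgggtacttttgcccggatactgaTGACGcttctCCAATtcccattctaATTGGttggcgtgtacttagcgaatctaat

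TTTCNNTTC was present in the windows of 6 of the 8 chains, all but H2-T23 and H2-T22, and in 7.52% of all 32851 promoter windows of that length. GGGGATTCC was present in 4 of the 8, H2-K1, H2-D1, H2-Q6 and H2-Q7, and in 0.25% of all windows. CCAAT was present in 8 of the 8 and in 37.4% of all windows, and TGACG in 6 of the 8, all but H2-T23 and H2-Q6, and in 20.8% of all. All 4 together were found in 4 windows (0.0122%), and those belonged to H2-K1, H2-D1 and H2-Q7. The only TGACG match of H2-T22 lay outside the stretch shown, as did a CCAAT match of H2-T22 and a TGACG match of H2-Q4. TTCNNNGAA, the palindromic core read by STAT factors, was present only in the window of H2-M3, outside the stretch shown, and in 8.3% of all windows. The shorter TTTCNNTT, added after the sequences were seen, was in 8 of the 8 and in 23.9% of all windows. In a global alignment without a penalty for mismatches, in which unrelated sequences also share many letters, the stretches of H2-K1 and H2-D1 shared 129 of 146 bases (88.4%) and those of H2-Q6 and H2-Q7 shared 142 (97.3%). H2-K1 shared 121 bases (82.9%) with H2-Q4, 91 (62.3%) with H2-M3, 79 (54.1%) with H2-T22 and 69 (47.3%) with H2-T23. A match is a description of the letters, and no binding was measured here.

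Values were deposited as normalized signal with no stated unit, so read depth is unknown, library totals (698396 to 715500) do not show it, and levels are compared across libraries and not between genes. The 11487 genes whose signal averaged 1 or more across the 10 libraries were tested with limma on log2(signal + 1), with Benjamini-Hochberg adjustment over all of them and calls at an adjusted p under 0.05. Of the 8 chains, 7 passed this filter and H2-Q6 did not. The 4 untreated libraries were not independent of each other: averages of libraries 1 and 2 and of libraries 3 and 4 lay a median of 0.00234 apart (log2 scale, genes above 0), compared with 0.0573 and 0.0723 when the 4 were paired in the other ways. Adjusted p-values against untreated all are therefore too small. Those between PD-L1 high and treated all are affected as well, because the estimate of the spread is shared by all groups. There, 1892 genes were called without untreated libraries 3 and 4, against 2943 with them. The counts of heavy chains called without libraries 3 and 4 are given beside the main ones, as are list counts that leaving them out changed. Cd274, which encodes PD-L1, differed by 0.51 ± 0.05 (log2, SE) between PD-L1 high and treated all (limma adjusted p = 4.1e-05), which checks the sort and is no finding. The summed signal of 6 epithelial markers was 4770 to 4840 in PD-L1 high, 5210 to 5240 in treated all and 4260 to 4420 in untreated all. Krt8, Krt18 and Krt19 made up nearly all of it and were called lower in PD-L1 high than in treated all (-0.14, -0.10 and -0.19), whereas Epcam (0.68), Krt7 (0.51) and Cdh1 (0.20) were called higher, 2 of them without untreated libraries 3 and 4. The sum over 11 leukocyte markers was 0.211 to 0.277 in PD-L1 high, 0.116 to 0.526 in treated all and 0.0946 to 0.619 in untreated all, with Cd3e, Cd3g, Adgre1 and Nkg7 among those at 0 in every library. Sums over 6 fibroblast markers were 13.2 to 14.2, 16.6 to 18.8 and 26.0 to 28.7 in the same order of groups, and those over 4 endothelial markers were at most 0.643. Sums over 4 acinar markers were 10.9 to 14.5 in PD-L1 high, at most 11.9 in treated all and 12.2 to 14.0 in untreated all. Cpa1 was at 0 throughout, and the 2 acinar markers tested went opposite ways with IFNγ. In treated all against untreated all, Prss2 was higher (0.96 ± 0.12 on the log2 scale) and Cela1 lower (-0.45 ± 0.08). Prss2 averaged 0.745 in untreated all and passed the filter only through libraries with IFNγ, so the filter favoured its rise. The part of these markers in the differences between groups was not tested.

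With IFNγ, cells of all PD-L1 levels carried far more class I heavy chain RNA. Of the 7 chains tested, 7 were higher in treated all than in untreated all, with a median log2 fold change of 3.75 against -0.07 over all genes tested. In this comparison 61.9% of all genes were called, 23.1% as higher and 38.8% as lower. Without untreated libraries 3 and 4, 6 of the 7 chains were called, of 5447 genes in all against 7106 with them. The chain not called then was H2-Q7, which averaged 0.0745 in untreated all. It passed the filter only through libraries with IFNγ, so the filter favoured a rise and its call is not read as support. In these bulk libraries a larger share of expressing cells and more RNA per cell cannot be told apart. The markers of leukocytes, which carry much class I, were near 0 in all groups, as given above. Sums of fibroblast markers were 16.6 to 18.8 in treated all and 26.0 to 28.7 in untreated all. The part of other cells in the heavy chain signal was not tested.

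**Figure D1:**
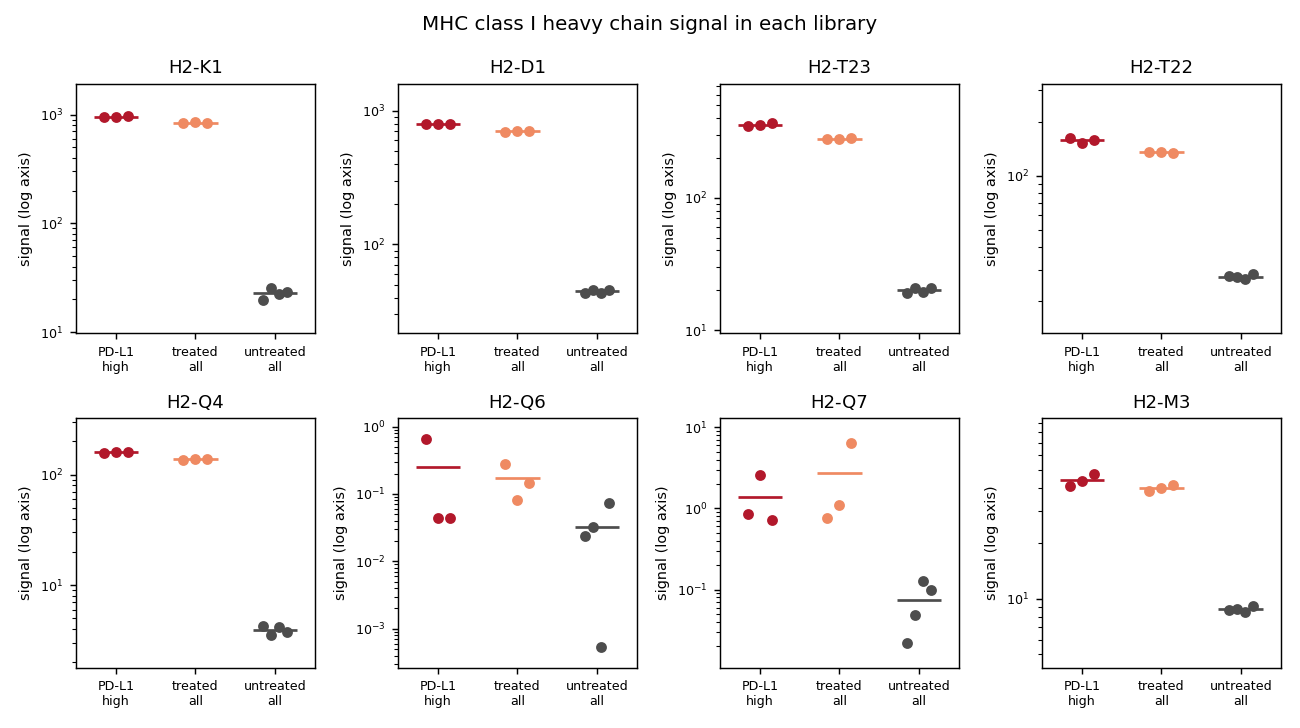
Deposited signal (log axis, a different range in each panel) of the 8 heavy chains in each library, by group, with a line at the group mean. For every chain but H2-Q6 each library with IFNγ lay above each untreated one, though the H2-Q7 libraries with IFNγ were scattered. H2-Q6 stayed below 1 throughout. The share of all genes separated in this way was not computed.

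The classical chain H2-K1 had a signal of 831, 849 and 838 in treated all libraries 1 to 3, against 19.6, 25.7, 22.5 and 23.4 in untreated all libraries 1 to 4. The groups were far apart, and the ratio of their means was 36.8. The log2 fold change was 5.15 ± 0.07 (SE; limma adjusted p = 3.9e-13), rank 22 of 11487 from the highest. H2-D1, the other classical chain, had 694, 708 and 698 in treated all, against 43.6, 45.9, 43.6 and 46.0 in untreated all, a ratio of means of 15.6 and a log2 fold change of 3.94 ± 0.02 (adjusted p = 2e-16). In untreated all, H2-K1 spread more widely for its level (22.8 ± 2.5, mean ± SD, n = 4) than H2-D1 (44.8 ± 1.34, n = 4).

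Of the nonclassical chains other than the sparsely measured H2-Q7, H2-Q4 moved most: it had 137, 138 and 138 in treated all, against 4.26, 3.56, 4.16 and 3.77 in untreated all. The ratio of means was 34.9, close to that of H2-K1, while the log2 fold change was 4.81 ± 0.05 (limma adjusted p = 1.7e-14), since adding 1 before taking logs lowers the change of a gene with so low an untreated signal. H2-T23, which encodes Qa-1, had 280, 279 and 284 in treated all, against 19.0, 20.8, 19.5 and 20.7 in untreated all. Its ratio of means was 14.1 and its log2 fold change 3.75 ± 0.03 (adjusted p = 6.1e-15). Its promoter window held no TTTCNNTTC, GGGGATTCC or TGACG match.

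H2-T22 and H2-M3 changed least among the chains tested other than H2-Q7. H2-T22 had 135, 136 and 134 in treated all, against 27.5, 27.2, 26.6 and 28.2 in untreated all, a ratio of means of 4.93 and a log2 fold change of 2.26 ± 0.03 (limma adjusted p = 1.3e-13). H2-M3 had 38.5, 39.8 and 41.1 in treated all, against 8.71, 8.81, 8.46 and 9.17 in untreated all. Its ratio of means was 4.53 and its log2 fold change 2.06 ± 0.05 (adjusted p = 7.2e-11). In both chains the groups were far apart compared with the spread within them.

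The Qa-2 group was barely measured. H2-Q7 had 0.766, 1.10 and 6.42 in treated all, against 0.0218, 0.049, 0.128 and 0.0989 in untreated all. Every treated library lay above every untreated one, but treated all library 3 alone set most of the mean, and with it the ratio of means of 37.1. Its log2 fold change of 1.49 ± 0.46, which was 3.48 with a pseudocount of 0.1, passed the test (limma adjusted p = 0.018), did not without untreated libraries 3 and 4 (adjusted p = 0.084; 8.2e-04 to 0.084 over 20 alternatives), and could not be tested without treated all library 3, when its mean fell below the filter. Only the libraries with IFNγ brought H2-Q7 past the filter, which thus favoured a rise, and this call is not read as support. H2-Q6 had 0.282, 0.0821 and 0.146 in treated all and 0.0235, 0.0326, 5.26e-04 and 0.0732 in untreated all. It stayed below 1 in every library and was not tested.

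By class, the 2 classical chains had a median log2 fold change of 4.54 with IFNγ and the 5 nonclassical chains tested one of 2.26, against -0.07 over all genes. The nonclassical median counts H2-Q7 (1.49), which was barely measured and passed the filter only through libraries with IFNγ. The other nonclassical chains tested ran from 2.06 (H2-M3) to 4.81 (H2-Q4), and a median without H2-Q7 was not computed. The classes were not separated: H2-Q4 (4.81) lay between H2-K1 (5.15) and H2-D1 (3.94), and H2-T23 (3.75) lay next to H2-D1. The 95% intervals of H2-K1 (5.00 to 5.30), H2-Q4 (4.71 to 4.92), H2-D1 (3.89 to 3.99) and H2-T23 (3.68 to 3.82) did not overlap, and those of H2-T22 (2.20 to 2.33) and H2-M3 (1.94 to 2.18) did not either. The intervals rest on the untreated libraries and share their limit. The distances depend on the added 1: with a pseudocount of 0.1, H2-K1 was at 5.20 ± 0.07, H2-Q4 at 5.10 ± 0.06 and H2-Q7 at 3.48 ± 0.65, and the nonclassical median was then 3.48, the value of H2-Q7.

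The chains therefore took different shares of the total with and without IFNγ, which the ratio of 2 chains within a library shows free of any scaling between libraries. H2-K1 over H2-D1 was 1.18, 1.21 and 1.22 in PD-L1 high, 1.2 in each treated all library, and 0.450, 0.559, 0.516 and 0.509 in untreated all. Both IFNγ groups lay well above untreated all and overlapped each other. The log2 difference was 1.24 between treated all and untreated all, and 0.00 between PD-L1 high and treated all. With 3 libraries against 4 an exact two-sided permutation test cannot give a p below 0.0571, and with 3 against 3 none below 0.1, so none is read here as passing.

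H2-Q4 over H2-D1 was 0.202 ± 0.004 in PD-L1 high (SD, n = 3), 0.197 ± 0.0017 in treated all (n = 3) and 0.0882 ± 0.01 in untreated all (n = 4). H2-T22 over H2-D1 went the other way, at 0.199 ± 0.0061, 0.193 ± 0.0016 and 0.612 ± 0.016 in the same groups, as did H2-M3 over H2-D1, at 0.0554 ± 0.0045, 0.0569 ± 0.0018 and 0.196 ± 0.0038. In each of these ratios both IFNγ groups were clear of untreated all and overlapped each other. The classical pair made up 70.5% to 71.0% of the summed heavy chain signal in PD-L1 high, 71.8% to 72.4% in treated all and 51.5% to 54.2% in untreated all. H2-K1 alone made up 38.5% to 38.9%, 39.2% to 39.5% and 16.0% to 19.4%, and H2-T22 6.18% to 6.66%, 6.26% to 6.39% and 20.6% to 22.4%. Whether signal is per length is not stated, so a share is read across libraries and not as the abundance of one chain against another.

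**Figure D2:**
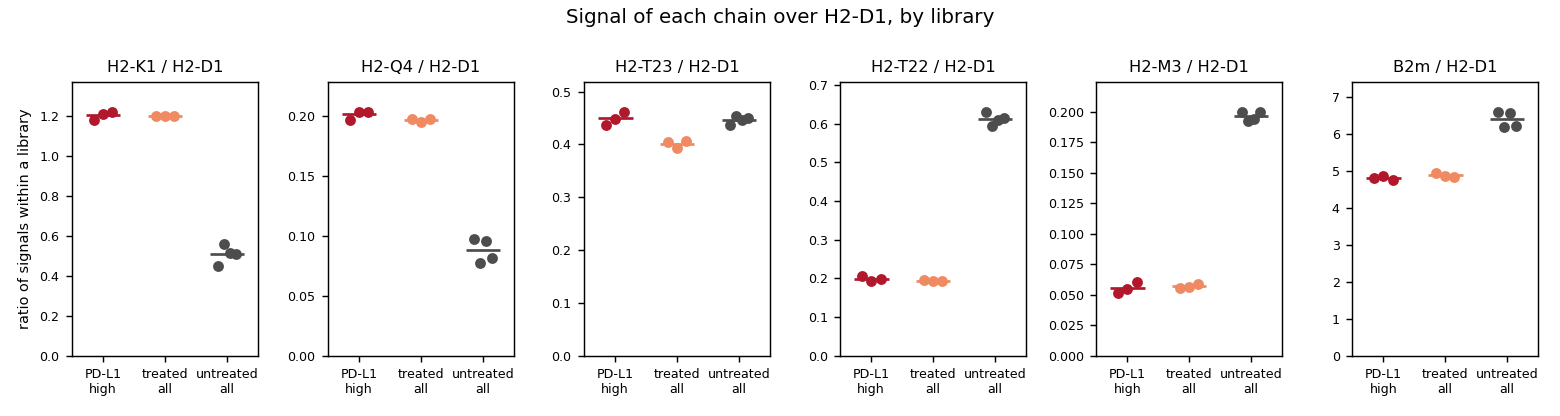
Ratio of the signal of 5 chains, and of the light chain B2m, to that of H2-D1 within each library (linear axes from 0), by group, with a line at the group mean. H2-K1 and H2-Q4 stood higher, and H2-T22, H2-M3 and B2m lower, relative to H2-D1 in both IFNγ groups than in untreated all; H2-T23 over H2-D1 was lowest in treated all.

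H2-T23 had a pattern of its own among these ratios. H2-T23 over H2-D1 was 0.437, 0.449 and 0.462 in PD-L1 high, 0.404, 0.394 and 0.407 in treated all, and 0.436, 0.453, 0.446 and 0.450 in untreated all. Treated all lay below both other groups, which overlapped each other. It was the one ratio to H2-D1 among those computed (H2-K1, H2-Q4, H2-T23, H2-T22, H2-M3 and B2m) in which PD-L1 high and treated all did not overlap, with a log2 difference of 0.16 and the smallest exact p that 3 against 3 allows, 0.1. That difference was chosen after the values were seen.

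Among IFNγ-treated cells, those sorted for high PD-L1 carried somewhat more heavy chain RNA than cells of all levels. Of the 7 chains tested, 4 were higher in PD-L1 high than in treated all (H2-T23, H2-T22, H2-Q4 and H2-D1), 0 were lower and 3 did not pass. In this comparison 25.6% of all genes were called, 11.5% as higher and 14.1% as lower. The median log2 fold change was 0.18 over the chains and -0.01 over all genes. Without untreated libraries 3 and 4, which enter through the shared estimate of the spread, the same 4 chains were called, of 1892 genes against 2943. The share of all calls that were higher was 44.9%, and 52.1% with median-ratio or 57.6% with upper-quartile scaling, while every chain but H2-Q7 kept a positive difference under each scaling.

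H2-T23 differed most. It had 347, 356 and 365 in PD-L1 high, against 280, 279 and 284 in treated all, with no overlap and means 26.7% apart. The log2 fold change was 0.34 ± 0.04 (SE; limma adjusted p = 6.6e-05), rank 569 of 11487. H2-T22 had 163, 152 and 158 in PD-L1 high, against 135, 136 and 134 in treated all, a log2 fold change of 0.22 ± 0.03 (adjusted p = 5.5e-04). H2-Q4 had 157, 162 and 162 in PD-L1 high, against 137, 138 and 138 in treated all, also 0.22 but with a larger error (± 0.05, adjusted p = 0.011). Neither of these 2 chains overlapped between the groups.

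The classical pair differed by equal amounts, with only one of them called. H2-D1 had 794, 792 and 791 in PD-L1 high, against 694, 708 and 698 in treated all, a log2 fold change of 0.18 ± 0.03 (limma adjusted p = 4.8e-04). H2-K1 had 939, 958 and 961 in PD-L1 high, against 831, 849 and 838 in treated all, with no overlap, a log2 fold change of 0.18 ± 0.07, a 95% interval of 0.03 to 0.34 and an adjusted p of 0.084. The estimate of the spread is shared with the untreated libraries, and the adjusted p was 4.7e-04 with only the 2 groups compared, 0.0078 without untreated all library 1 and 0.026 without untreated all library 2 (4.7e-04 to 0.17 over 22 alternatives). H2-M3 had 40.6, 43.6 and 47.5 in PD-L1 high and 38.5, 39.8 and 41.1 in treated all. The groups overlapped, and the log2 fold change of 0.14 ± 0.06 did not pass (adjusted p = 0.11), though it was 0.19 (adjusted p = 0.035) without PD-L1 high library 1 (0.035 to 0.32 over 22 alternatives).

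H2-Q7 had 0.864, 2.57 and 0.728 in PD-L1 high, against 0.766, 1.10 and 6.42 in treated all, which overlap, and a log2 fold change of -0.42 ± 0.49 (limma adjusted p = 0.58). H2-Q6 had 0.661, 0.0442 and 0.0442 in PD-L1 high. At so low a signal neither chain can be placed in an order of the 2 groups.

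**Figure D3:**
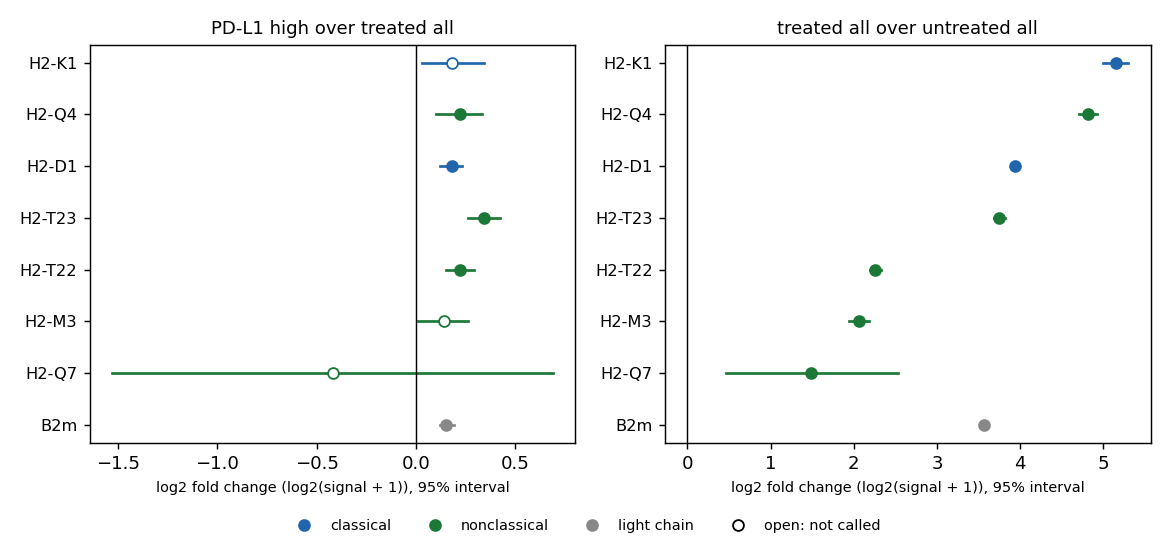
Log2 fold change with its 95% interval for the 7 chains tested and the light chain B2m, in PD-L1 high over treated all (left) and treated all over untreated all (right; the axes differ in range). Filled points were called at an adjusted p under 0.05 and open ones were not; with IFNγ the chains other than H2-Q7 ran from 2.06 (H2-M3) to 5.15 (H2-K1), the place of H2-Q7 (1.49) depends on the added 1 (3.48 with 0.1), and between PD-L1 high and treated all the called chains lay between 0.18 and 0.34.

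Set directly against untreated all, PD-L1 high cells had 6 of the 7 chains higher, 0 lower and 1 that did not pass, in a comparison in which 60.1% of all genes were called, 19.1% as higher and 41% as lower. Without untreated libraries 3 and 4, 6 chains were called, of 5046 genes against 6900. The 2 comparisons with untreated all share its libraries, so the values are set side by side only. The ratio of means was 41.8 for H2-K1, 40.7 for H2-Q4, 17.8 for H2-T23, 17.7 for H2-D1, 5.75 for H2-T22 and 5.00 for H2-M3. H2-Q7 had a log2 fold change of 1.07 ± 0.46 and did not pass (limma adjusted p = 0.07, and 0.0028 to 0.23 over 20 alternatives). The median was 4.09, against -0.10 over all genes.

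The light chain and the machinery that loads class I molecules were measured in the same libraries. B2m had 3816, 3851 and 3753 in PD-L1 high, 3430, 3451 and 3379 in treated all, and 288, 284, 287 and 287 in untreated all. It was higher in treated all than in untreated all by a log2 fold change of 3.57 ± 0.01 (limma adjusted p = 7.2e-18) and higher in PD-L1 high than in treated all by 0.15 ± 0.02 (adjusted p = 4.2e-05). The summed heavy chain signal over B2m was 0.640, 0.641 and 0.662 in PD-L1 high, 0.617, 0.623 and 0.633 in treated all, and 0.426, 0.465, 0.436 and 0.458 in untreated all. The 3 groups did not overlap, so the sum of the heavy chains changed by a larger factor than the light chain did.

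Of 8 genes that supply peptides, 8 were higher in treated all than in untreated all, with a median log2 fold change of 3.26, where 23.1% of all genes were called higher and the median over them was -0.07. The immunoproteasome subunits Psmb8 (6.58 ± 0.03) and Psmb9 (6.54 ± 0.06) and the peptide transporter subunit Tap1 (6.11 ± 0.08) exceeded every heavy chain, whereas Tap2, the other transporter subunit, was at 3.39 ± 0.06 and Erap1, which trims peptides, at 2.44 ± 0.08. Between PD-L1 high and treated all, where 11.5% of all genes were called higher and their median was -0.01, 4 of the 8 were called, all higher, with a median of 0.18, and 2 without untreated libraries 3 and 4: Psmb8 (0.17), Psmb9 (0.19), Tap2 (0.19) and Erap1 (0.27). The last 3 were near the threshold (limma adjusted p = 0.036, 0.041 and 0.049) and lost the call under 11, 12 and 14 of 22 alternatives.

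Of 5 genes of peptide loading, 4 were higher with IFNγ, with a median of 0.58, where 23.1% of all genes were called higher. They were Tapbp, which encodes tapasin (2.84 ± 0.02), its relative Tapbpl (2.98 ± 0.04) and, by much smaller amounts, the chaperones Calr (0.58 ± 0.02) and Pdia3 (0.49 ± 0.02). Canx, which encodes calnexin, did not pass, at -0.06 ± 0.03. Tapbp (0.15 ± 0.02) and Tapbpl (0.16 ± 0.04) were higher in PD-L1 high than in treated all, and the 3 chaperones did not pass (list median 0.00). In that comparison 25.6% of all genes were called, 11.5% as higher.

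Of 12 transcription factor genes named for class I promoters, 5 were higher and 2 lower in treated all than in untreated all, with a median of 0.01. With 61.9% of all genes called in this comparison, that count is near the background. Nlrc5, the transactivator of class I genes, had 35.9, 39.5 and 41.4 in PD-L1 high, 31.7, 29.4 and 32.0 in treated all, and 0, 0, 0.0145 and 0.0733 in untreated all. Its log2 fold change was 4.97 ± 0.06 with IFNγ (limma adjusted p = 8.5e-14), a value that depends on the added 1 because untreated all was at or near 0. For the same reason Nlrc5 passed the filter only through libraries with IFNγ. The filter thus favoured a rise, and this call is not read as support. Irf1, which binds the IRF-type motif, had 378, 362 and 371 in PD-L1 high, 530, 525 and 536 in treated all, and 35.3, 37.2, 38.9 and 33.9 in untreated all.

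Nlrc5 and Irf1 moved in opposite directions between PD-L1 high and treated all. Nlrc5 was higher by 0.32 ± 0.07 (limma adjusted p = 0.0055; 0.22 with a pseudocount of 0.1, and 0.0032 to 0.22 over 22 alternatives), whereas Irf1 fell by 0.52 ± 0.04 (adjusted p = 9.6e-06). The third gene called there was Nfya, an NF-Y subunit, at 0.17 ± 0.04, so that 2 of the 12 were higher and 1 lower, with a median of 0.12. That count is near the 25.6% of all genes called in this comparison. With IFNγ, Irf2 (0.59), Rela (0.22) and Nfkb1 (0.18) were also higher than in untreated all, and Nfya (-0.83) and Creb1 (-0.43) lower. The genes of the RFX complex that anchors NLRC5 to promoters, Rfx5, Rfxap and Rfxank, passed in neither comparison.

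Of 8 tested genes known to silence class I genes or to remove class I molecules, 1 was higher and 4 were lower in treated all than in untreated all (median -0.08, against -0.07 over all genes). That count, too, is near the 61.9% called over all genes, and without untreated libraries 3 and 4 it was 1 higher and 3 lower. Susd6, part of a complex that sends class I molecules for degradation, was higher (0.30 ± 0.03), while its partner Tmem127 was lower (-0.36 ± 0.05). Also lower were Nbr1, an autophagy receptor reported to remove class I molecules in pancreatic cancer (-0.23 ± 0.05), and the Polycomb genes Ezh2 (-0.55 ± 0.10) and Suz12 (-0.14 ± 0.04, a call lost under 3 of 22 alternatives). Between PD-L1 high and treated all, 2 were higher, Tmem127 (0.22 ± 0.05) and Nbr1 (0.16 ± 0.05), the second losing its call under 9 of 22 alternatives, and 1 was without untreated libraries 3 and 4 (list median 0.04). In that comparison 25.6% of all genes were called, 11.5% as higher, so this count is near the background as well.

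**Figure D4:**
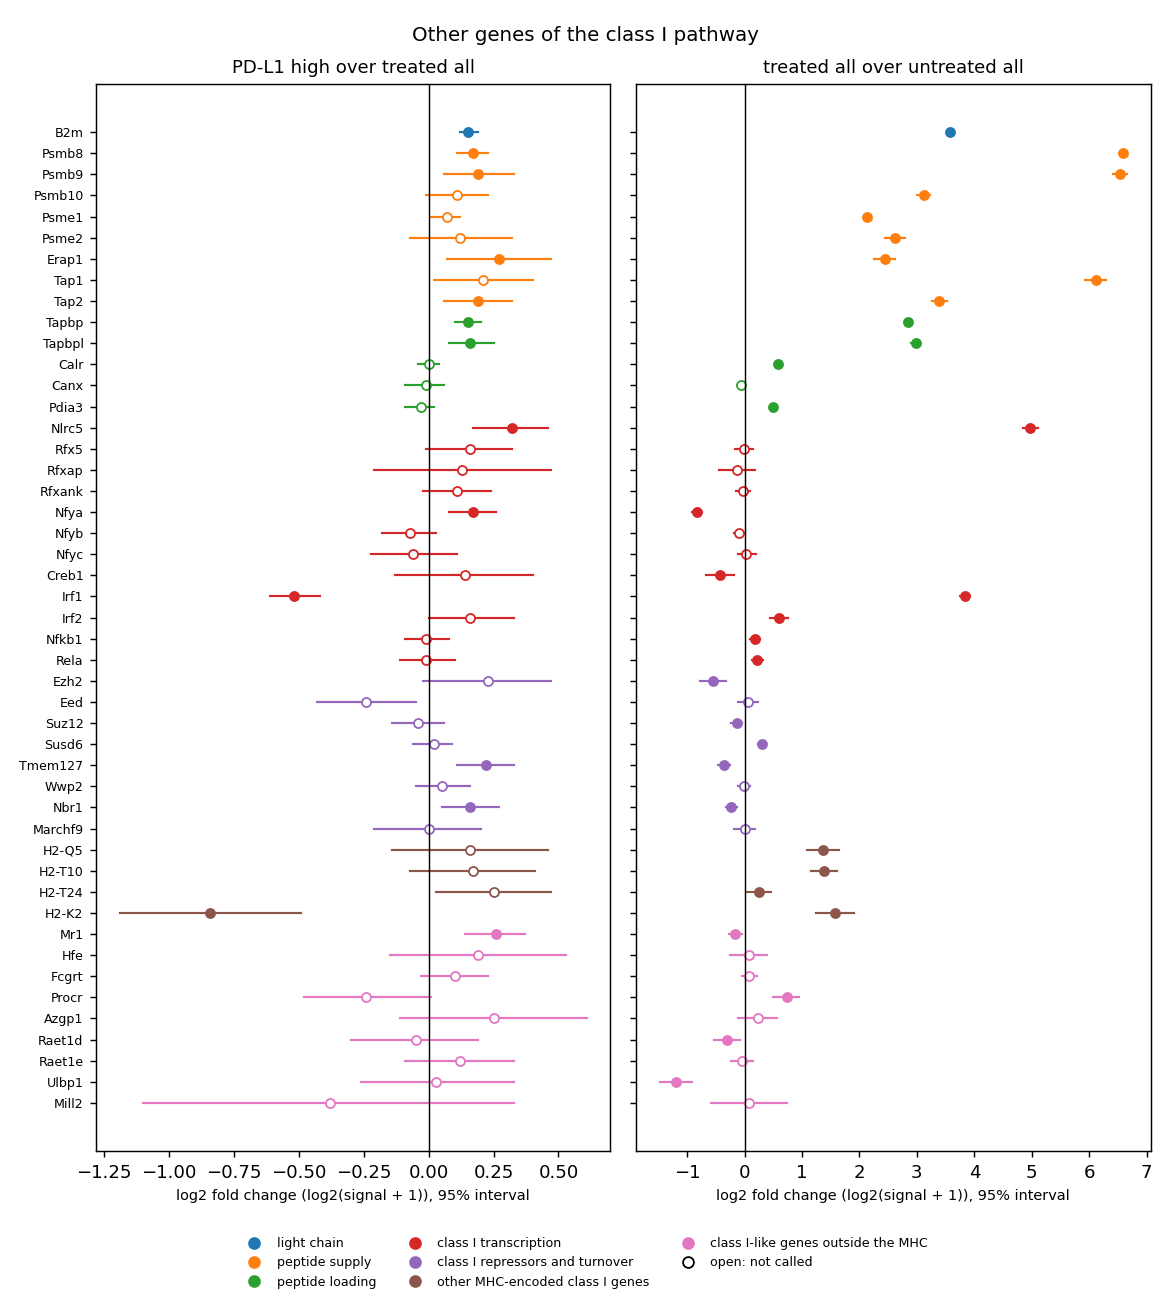
Log2 fold change with its 95% interval for the tested genes of 7 lists, in PD-L1 high over treated all (left) and treated all over untreated all (right; the axes differ in range); filled points were called at an adjusted p under 0.05. With IFNγ the light chain, the peptide supply genes, Tapbp, Tapbpl, Nlrc5 and Irf1 lay far to the right, and Irf1 and H2-K2 were the only points called lower in PD-L1 high than in treated all.

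The other class I genes encoded in the MHC were mostly silent or not measured. Of 24 listed, 20 had values, 10 of these were above 0 in some library and 4 passed the filter. All 4 were higher in treated all than in untreated all (median 1.37), and 3 without untreated libraries 3 and 4. Over all genes tested, 23.1% were called higher in this comparison. H2-T24 had 9.52, 6.76 and 8.13 in treated all, against 7.16, 6.05, 6.64 and 6.62 in untreated all, which overlap, and lost its call under 10 of 22 alternatives (log2 fold change 0.25 ± 0.09). H2-Q5 (1.37 ± 0.13), H2-T10 (1.38 ± 0.10) and H2-K2 (1.58 ± 0.15) were low, with means of 1.83, 2.78 and 2.33 in treated all. In untreated all their means were 0.0982, 0.449 and 0.114. These 3 genes passed the filter only through libraries with IFNγ, so the filter favoured a rise and their calls are not read as support. H2-Q5 and H2-T10 are annotated as polymorphic pseudogenes and H2-K2 as a transcribed pseudogene.

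H2-K2 was the one class I gene of either list called lower in PD-L1 high than in treated all, where 14.1% of all genes were called lower. It had 0.39, 1.13 and 1.16 in PD-L1 high, against 2.6, 2.4 and 2.0 in treated all and 0.0804, 0.135, 0.15 and 0.091 in untreated all. The 3 groups did not overlap, with a log2 fold change of -0.84 ± 0.16 between the IFNγ groups (limma adjusted p = 0.0031; 0.0029 to 0.017 over 17 alternatives). H2-K1, on the same strand at the same end of the MHC, lay higher in PD-L1 high, as given above. The mean signal of H2-K2 over the 10 libraries, 1.01, was just above the filter. By group it was 0.894 in PD-L1 high, 2.33 in treated all and 0.114 in untreated all, so only treated all averaged above 1. The filter thus favoured a high treated all, and the test of this difference is not read as support. Under 5 alternatives H2-K2 fell below the filter and was not tested.

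Class I-like genes outside the MHC did not follow the heavy chains. Of 9 tested, 1 was higher in treated all than in untreated all, Procr, the endothelial protein C receptor (0.73 ± 0.10). The 3 lower ones were Ulbp1 (-1.20 ± 0.13) and Raet1d (-0.31 ± 0.11), which encode ligands of the NK receptor NKG2D, and Mr1 (-0.16 ± 0.05), which presents vitamin B metabolites to MAIT cells. Without untreated libraries 3 and 4, 1 of the 9 was higher and 1 lower. The call of Raet1d was lost under 6 of 21 alternatives and that of Mr1 under 3 of 22. The list median was 0.07, against -0.07 over all genes. Of all genes 61.9% were called, 23.1% as higher and 38.8% as lower, so the count of calls does not set this list apart. Mr1 alone was called between PD-L1 high and treated all, where it was higher (0.26 ± 0.05, limma adjusted p = 0.0045; list median 0.10). In that comparison 25.6% of all genes were called.

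Each chain was also set against the genes tested by the root mean square difference of the centred log2(signal + 1) profiles over the 10 libraries. Genes with only a serial or clone name (Gm, Rik and similar) were left out. The measure describes likeness with no test, and the 3 groups set most of each profile. For genes at or near 0 in untreated all, among them Batf2, Nlrc5, Il12rb1, Ifi44 and Mpeg1, the added 1 sets the size of the step with IFNγ and so the nearness. The nearest genes to H2-K1 were Batf2 (0.114), Nlrc5 (0.123) and Rtp4 (0.126), all nearer than its nearest fellow chain, H2-Q4 (0.207). For H2-D1 the nearest gene was its fellow chain H2-T23 (0.0852), followed by Il12rb1 (0.0904), Bst2 (0.104) and Ifi44 (0.127). H2-T23 had Bst2 (0.095), Oas3 (0.103) and Il12rb1 (0.116). H2-Q4 had Mpeg1 (0.0639), Il18bp (0.0927) and Cd74 (0.12), the MHC class II invariant chain. H2-T22 had Olfml2b (0.0488), Xdh (0.0658) and Ly6c1 (0.069), and H2-M3 had Rnf213 (0.0514), the proteasome activator subunit Psme1 (0.0554) and Irf9 (0.0641). None of the genes compared was near H2-Q7, whose closest was Gmppb (0.458).

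Class I genes are near-copies of each other, and no source used here says how reads that fit several copies were counted. Of all distinct 50-base stretches of a chain's annotated transcripts, 0.576% also occurred in another gene for H2-M3, 6.87% for H2-K1, 13.9% for H2-D1, 29.8% for H2-T23, 34.9% for H2-Q7, 35% for H2-Q6, 39.2% for H2-Q4 and 43.9% for H2-T22. For 100-base stretches the shares were 0 for H2-M3 and H2-K1, 4.09% for H2-D1, 7.28% for H2-T23, 12.4% for H2-T22, 13% for H2-Q6, 13.9% for H2-Q4 and 17.2% for H2-Q7. The main partner of H2-T22 was H2-T10 (37.5% of its 50-base stretches), that of H2-Q7 was H2-Q5 (17.4%) and that of H2-Q6 was H2-Q7 (13.9%). Values of H2-T22, H2-Q4, H2-Q6 and H2-Q7, and of the other genes of their families, are therefore uncertain where reads were split among copies, while those of H2-K1 and H2-M3 rest mostly on sequence of their own. H2-Q8, H2-Q9, H2-T9 and H2-L have no value in the table used here.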

How the data were processed

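Per the labels' protocols, TruSeq libraries were made from total RNA. The submitters' processing notes name CASAVA 1.7 and mm10. Aligner, counter, annotation, read length and unit are not stated in these sources. The deposited signal, normalized by the authors, covers 10 libraries, and 3 columns of group means were left aside. Of 25507 rows, 695 had no value, and where several rows had 1 symbol (52 symbols) their signal was summed.

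The 11487 genes averaging a signal of 1 or more were fitted with limma 3.58.1 (R 4.3.3) on log2(signal + 1), which understates changes of low genes, with 1 mean per group over all libraries, an intensity trend, robust variances and Benjamini-Hochberg adjustment over all genes. The script was tested on simulated data with independent libraries, so that test does not cover the dependence among the untreated libraries. Alternatives were other scalings, filters, pseudocounts, sets of libraries and a replicate block. The members were given by symbol; all members, the called genes of each list and the 3 nearest genes by profile were named. Members, lists and rules were chosen with earlier results of these data known. Coordinates are from GENCODE (GRCm38) and promoter windows from RefSeq (GRCm38.p6). Plots used Python 3.11.15 and matplotlib 3.10.9.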

Additional observations from a re-analysis of the deposited data

How the results depend on the processing

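Counts of calls and the log2 fold changes of single genes were recomputed under up to 22 alternatives, and none of these fold changes turned direction where it was called. Ratios, shares, sums and profile likeness were not recomputed. Of 456 recomputed values for the heavy chains, 447 kept their side of the threshold, 8 passed it anew and 1 was lost. These were H2-K1 (3) and H2-M3 (1) between the IFNγ groups, the loss of H2-Q7 with IFNγ, and H2-Q7 in PD-L1 high against untreated all with a pseudocount of 0.1 (log2 fold change 2.93) or 0.5 (1.59), with only the 2 groups or without treated all library 1 (1.07 each). Of 3066 values for the genes of the other lists, 109 were lost and 25 passed anew. Without untreated libraries 3 and 4, 1892 genes were called between PD-L1 high and treated all, against 2943 with them; the other counts stayed within 1.5 times the main one. Replicate numbers did not pair the samples (correlations of same-numbered libraries -0.181 to 0.104, with 1 of 9 over 0.1). With a replicate block, 6518 genes were called in treated all against untreated all (7106 without), 2432 in PD-L1 high against treated all (2943) and 6195 in PD-L1 high against untreated all (6900), and 7, 4 and 6 heavy chains were called, as without it. In treated all against untreated all, 37.3% of calls were higher, and 51.6% with median-ratio scaling; in PD-L1 high against untreated all the shares were 31.7% and 51.1%. No fit could be made for H2-Q7 with a minimum mean of 5 or without treated all library 3. Read depth is unknown and limits what can be said of H2-Q6 and H2-Q7.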
